A study of Mus musculus with 8 samples.

Results

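The Dlk1-Dio3 region of mouse chromosome 12 is an imprinted stretch of the genome that holds one of the largest groups of miRNA genes in mammals. Its entries were taken by name from the counts of small RNA sequenced from mouse testis. The rule listed the miRNAs known from this region and kept each mature name, with or without an arm, among the entries of the miRNA class, where names carry the prefix of the mouse (mmu-miR-376b-5p, mmu-miR-376b-3p) that is left out below. It used no measured value, and it found 48 entries from 34 precursors, out of 730 entries of the miRNA class and 20558 small RNAs in all. Samples came from 8 adult C57Bl/6 males, 1 library per animal: 4 control mice on a standard diet (SD mice: M1N, M2N, TN1, TN2) and 4 mice on a Western-like diet rich in butter and sucrose (WD mice: M1W, M2W, M3W, M5W). No transgene or mutation was involved, and all 8 libraries were made from whole testis RNA, in which germ cells and somatic cells are mixed. The sample labels describe the high-fat diet from an age of 4 weeks, in words repeated for the controls, and mating at 4 months. The comparison addresses whether the diet of a male alters the small RNA of its testis.

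In this region the paternal copy expresses the protein-coding genes Dlk1, Rtl1 and Dio3, while the maternal copy expresses long non-coding RNAs, namely Meg3, the antisense transcript of Rtl1, Rian and Mirg, from which the miRNAs are cut. The imprint is a methylation mark placed on the paternal copy in the male germ line. Each precursor hairpin can yield a mature miRNA from its 5' side, the 5p arm, and from its 3' side, the 3p arm. Bases 2 to 8 of a mature miRNA, the seed, pair with target RNAs. The miRNAs of the region are best known from brain, placenta and muscle.

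The sequences below come from RefSeq (GRCm38.p6), which held 43 of the 48 mature sequences under the same name. It had none for miR-376c-3p, miR-299-5p, miR-299-3p, miR-487b-3p and miR-496-3p. Shown are the miRNAs on which the results turn, with the seed in capitals.
miR-376b-5p: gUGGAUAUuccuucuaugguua
miR-376b-3p: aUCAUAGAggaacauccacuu
miR-376a-3p: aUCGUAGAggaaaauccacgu
miR-541-5p: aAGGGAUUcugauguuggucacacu
miR-136-5p: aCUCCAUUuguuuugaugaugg
miR-379-5p: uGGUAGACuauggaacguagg
miR-434-5p: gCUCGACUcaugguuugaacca
miR-3072-3p: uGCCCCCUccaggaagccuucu
miR-376c-5p, no entry here, shown as the nearest relative of miR-376b-5p: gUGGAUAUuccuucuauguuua
The hairpin of miR-376b is shown because its arms differed in their counts, with the 5p arm and then the 3p arm in capitals.
Mir376b: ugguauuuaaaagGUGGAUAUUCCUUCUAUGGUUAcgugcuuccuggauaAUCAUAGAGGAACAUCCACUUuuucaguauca

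Each of the 43 mature sequences had exactly 1 match in the mouse genome NCBIM37 (mm9), and together with 2 matched by hairpin only, 45 of the 48 entries were placed on chromosome 12, all on the plus strand and all between Dlk1 and Dio3. The label of the group therefore held for every entry placed by sequence. For miR-496-3p the GENCODE M1 annotation lists Mir496 at chr12:110977329-110977407, within Mirg, and the 2 arms of miR-299 were not placed. The precursors of the entries reached from 110823999 to 110986170. miR-376b-5p lies at chr12:110961681-110961702 and miR-376b-3p at chr12:110961718-110961738, inside Mir376b and in no longer gene of the GENCODE M1 annotation. miR-541-5p, at chr12:110980632-110980656, and miR-3072-3p, at chr12:110986138-110986159, lie in introns of Mirg. miR-379-5p, at chr12:110947275-110947295, lies in no longer gene. miR-136-5p, at chr12:110833541-110833562, and miR-434-5p, at chr12:110832738-110832759, lie opposite an exon of Rtl1, a paternally expressed gene derived from a retrotransposon, which the miRNAs of this stretch are known to target.

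Seeds were almost all different: 42 seeds were found among the 43 sequences, and only miR-379-3p and miR-411-3p shared one, AUGUAAC. Against all mouse miRNAs, aligned without gaps, 3 of the 43 had another within 2 differences. One of them was miR-376b-5p, which differs from miR-376c-5p by a single substitution, G19U, counted from 1 at the 5' end of miR-376b-5p. The alignment allowed 2 mismatches, and how reads with more than 1 match were counted is not given in the sources used here, so counts of miR-376b-5p may include reads of miR-376c-5p. The others were miR-379-3p and miR-411-3p, at 2 differences from each other. miR-376b-3p and miR-376a-3p differ at 3 positions (A4G, C13A and U20G).

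These miRNAs were scarce in testis. The 48 entries took 3176 reads over the 8 mice, between 0.109% and 0.204% of the miRNA reads of a mouse. Levels are given as CPM, read counts scaled to one common library total after TMM factors had corrected the totals for composition. The library totals lay between 2064562 and 3253798 in SD mice and between 2159625 and 3092399 in WD mice, so 3 counts, taken as the smallest number that shows a miRNA, amounted to between 0.933 and 1.39 CPM. This limit and the intervals given below cover counting error only, since reads copied by PCR are not independent molecules. A total of 28 entries had a median count under 5. Only 13 entries, from 11 precursors, passed the filter of edgeR on low counts and were tested, and these held 67.6% of the reads of the group. The remaining 35 had between 9 and 79 reads each over the 8 mice, and 20 of them had no read in at least 1 mouse. Libraries differed among SD mice as well. On the first principal component of all small RNAs tested, with 47.3% of the variance, the score of M1N was -73.0 and that of M2N -35.4, and scores of the other 6 ran from 4.42 to 34.5. Several differences between diets are therefore also given against M1N and M2N and against TN1 and TN2.

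miR-136-5p was the most abundant entry, with 14.96% of the reads of the group. It is cut from the transcript antisense to Rtl1. It had 27.8 CPM in M1N, 16.9 in M2N, 18.3 in TN1 and 19.5 in TN2, and 17.4 CPM in M1W, 43.0 in M2W, 13.4 in M3W and 19.0 in M5W. M2W was the highest mouse and the other 3 WD mice fell within or below the range of the SD mice. The difference, WD over SD, was 0.16 on the log2 scale (standard error 0.31, adjusted p = 0.818 in edgeR's quasi-likelihood test), within the spread between mice.

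miR-379-5p, the first miRNA of the miR-379/miR-410 cluster, had 5.83, 14.99, 12.3 and 12.04 CPM in M1N, M2N, TN1 and TN2. In M1W, M2W, M3W and M5W it had 13.1, 23.7, 12.4 and 10.9 CPM. The diets overlapped, with M2W again highest and M1N lowest, and the difference was 0.40 on the log2 scale (edgeR, adjusted p = 0.527, standard error 0.31).

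miR-434-5p, a neighbour of miR-136-5p in the stretch antisense to Rtl1, had 5.14, 7.65, 7.56 and 5.56 CPM in the SD mice in the same order. In M1W, M2W, M3W and M5W it had 6.57, 17.98, 6.91 and 5.60 CPM. The 3 WD mice other than M2W lay inside the range of the SD mice. It differed by 0.47 on the log2 scale, with 0.36 as standard error (edgeR, adjusted p = 0.528), and -0.04 without M2W.

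miR-376c-3p, of the same family as miR-376b, had 8.23, 8.29, 5.67 and 6.95 CPM in the SD mice. In the WD mice it had 2.96, 17.98, 5.99 and 4.98 CPM, so that M2W exceeded every other mouse and M1W was the lowest. Its log2 fold change of 0.07 (adjusted p = 0.941 in edgeR's test) was -0.67 without M2W (adjusted p = 0.349).

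miR-376a-3p, the third miRNA of the family, had 3.77, 1.91, 5.04 and 6.02 CPM in the SD mice. In the WD mice it had 1.97, 8.33, 5.07 and 2.49 CPM, again with M2W highest and with overlapping diets, at a log2 fold change of 0.05 (adjusted p = 0.961 in edgeR's test). miR-3072-3p, the last of the 45 placed entries along the chromosome, differed from this pattern in that M1N, with 11.7 CPM, was its highest mouse. The other SD mice had between 5.09 and 6.06 CPM of it and the WD mice between 5.53 and 8.71 CPM.

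**Figure D1:**
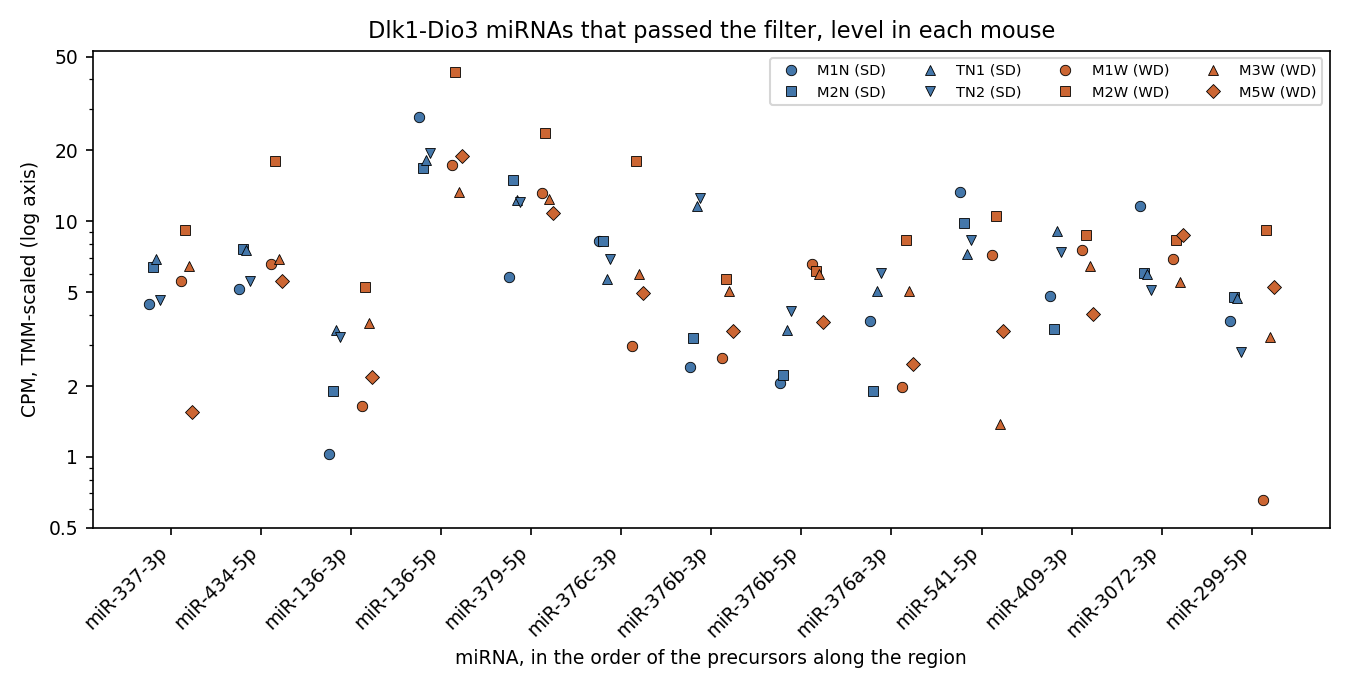
Level of the 13 miRNAs that passed the filter in each of the 8 mice, as TMM-scaled CPM on a log axis, SD mice in blue and WD mice in orange, in the order of the precursors along the region with miR-299-5p, which was not placed, at the end. M2W (orange squares) is the highest mouse in 8 of the 13, and TN1 and TN2 (blue triangles) are the highest for miR-376b-3p.

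These miRNAs were thus higher together in M2W. Summed over the 48 entries, the SD mice had 130, 135, 158 and 151 CPM (M1N, M2N, TN1 and TN2), a mean of 143 ± 13.2 (SD, n = 4). The WD mice had 121, 260, 117 and 104 CPM (M1W, M2W, M3W and M5W), a mean of 150 ± 73.3 (SD, n = 4). M2W was above every other mouse, whereas M1W, M3W and M5W, with a mean of 114 ± 8.99 (SD, n = 3), were all below the lowest SD mouse. The ratio of the means, WD over SD, was 1.05 with M2W and 0.793 without it. With M2W it was 1.13 against M1N and M2N and 0.972 against TN1 and TN2.

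The excess of M2W was present in each stretch of the region with more than 1 entry. In the 9 entries antisense to Rtl1, M2W had 84.2 CPM, the other WD mice between 29.5 and 31.7 and the SD mice between 37.6 and 39.4, so that the WD mice lay on both sides of a narrow SD range. In the remaining 35 entries, assigned by name to the miR-379/miR-410 cluster together with miR-3072-3p, which lies beyond miR-410, and the miR-299 arms, which were not placed, M2W had 156 CPM, the other WD mice between 67.5 and 78.2 and the SD mice between 84.3 and 105. In the 3 entries on the side of Meg3, M2W had 18.9 CPM against 4.35 to 11.1 in the other WD mice and 7.54 to 12.6 in the SD mice. The single entry from Rian, miR-341-3p, had at most 3 counts in any mouse.

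M2W was the highest of the 8 mice in 8 of the 13 entries tested, against 35.9% of the 418 miRNA entries tested, and in 21 of all 48 entries, against 27.7% of the 730 miRNA entries listed. It had at least 1.5 times the mean of the other WD mice in 10 of the 13, against 37.3% of all miRNA entries tested. Among the 22 entries with at least 40 reads, M2W was above the mean of the 8 mice in 22 and the highest in 13, where the shares over all 519 miRNA entries with as many reads were 72.3% and 33.3%. The miRNA class took 12.7% of the reads of M2W and between 9.23% and 10.7% in the other mice. With CPM taken over the miRNA reads alone, M2W still had 2036 CPM of the group, against 1097 to 1316 in the other WD mice and 1090 to 1710 in the SD mice, and by this measure the other WD mice overlapped with the SD mice.

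Several lists of markers of other cell types were also higher in M2W than in the other WD mice. The summed level of 6 marker entries of epithelium was 111 CPM in M2W, 58.1 to 63.5 in the other WD mice and 30.8 to 62.1 in the SD mice. The 8 entries of smooth muscle and stroma had 6949 CPM in M2W, 3809 to 4816 in the other WD mice and 3636 to 5084 in the SD mice. miR-126, of endothelium, had 2438 CPM over both arms in M2W, 1248 to 1775 in the other WD mice and 1323 to 2099 in the SD mice. miR-202, of the gonadal soma, had 7021 CPM in M2W, 4187 to 4487 in the other WD mice and 3609 to 4193 in the SD mice. The 8 blood entries had 581 CPM in M2W, 280 to 381.5 in the other WD mice and 337.2 to 582 in the SD mice. The ratio of M2W to the other WD mice was 1.83 for epithelium, 1.81 for blood, 1.69 for endothelium, 1.68 for smooth muscle and stroma and 1.62 for miR-202. It was 2.28 for the Dlk1-Dio3 miRNAs and 1.32 for the miRNA class as a whole. M2W did not stand apart for the 14 entries of male germ cells, where its ratio was 1.01 (18263 CPM, against 16068 to 20947 in the other WD mice and 16165 to 21667 in the SD mice). For the 4 entries of skeletal and heart muscle the ratio was 1.22 (52.6 CPM, against 28.6 to 50.7 and 41.1 to 50.02), and for the 4 neural entries 0.734 (90.3 CPM, against 86.2 to 161 and 30.2 to 93.9). In M2W each entry of the lists with a ratio above 1.5 had at least 1 read, while miR-200b-5p, miR-200c-3p and miR-223-5p had none in some of the other mice. Among SD mice, blood markers averaged 512 CPM in M1N and M2N and 364 in TN1 and TN2. Between the same pairs, endothelium had 2078.5 against 1367 CPM, and smooth muscle and stroma 5020.5 against 3840. The Dlk1-Dio3 miRNAs went the other way, with 132 against 155 CPM, as did epithelium (38.5 against 58.6) and miR-202 (3845 against 4113). The part of these cells in the level of the Dlk1-Dio3 miRNAs was not tested. In whole testis, more cells of a type and more RNA per cell cannot be told apart.

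**Figure D2:**
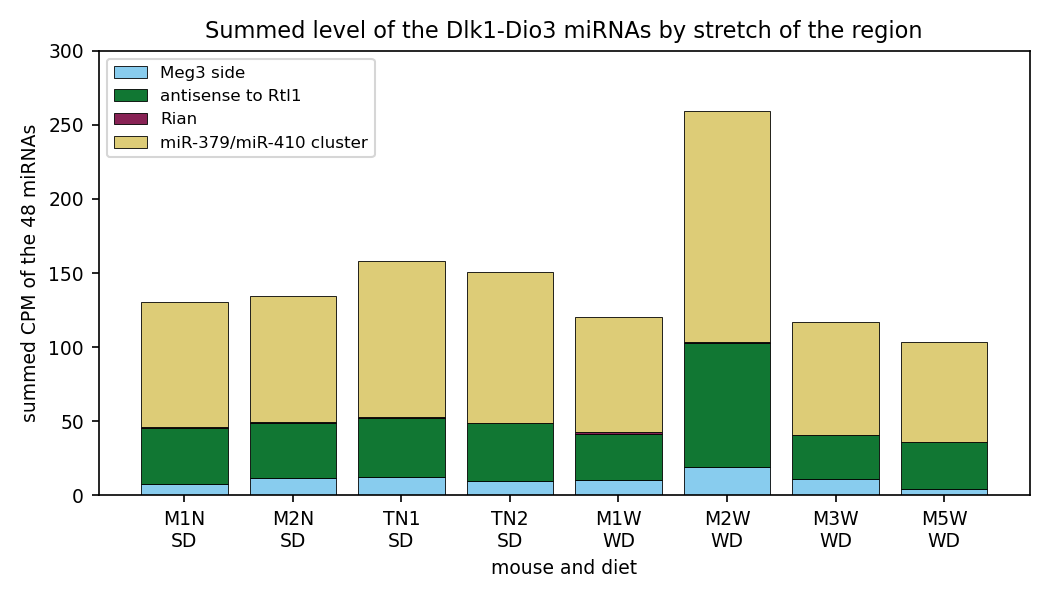
Summed CPM of the 48 Dlk1-Dio3 miRNAs in each mouse, stacked by stretch of the region (y axis from 0, 1 bar per mouse), with miR-3072-3p and the miR-299 arms counted under the miR-379/miR-410 cluster. M2W reaches 260 CPM, the other WD mice 104 to 121 and the SD mice 130 to 158.

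**Figure D3:**
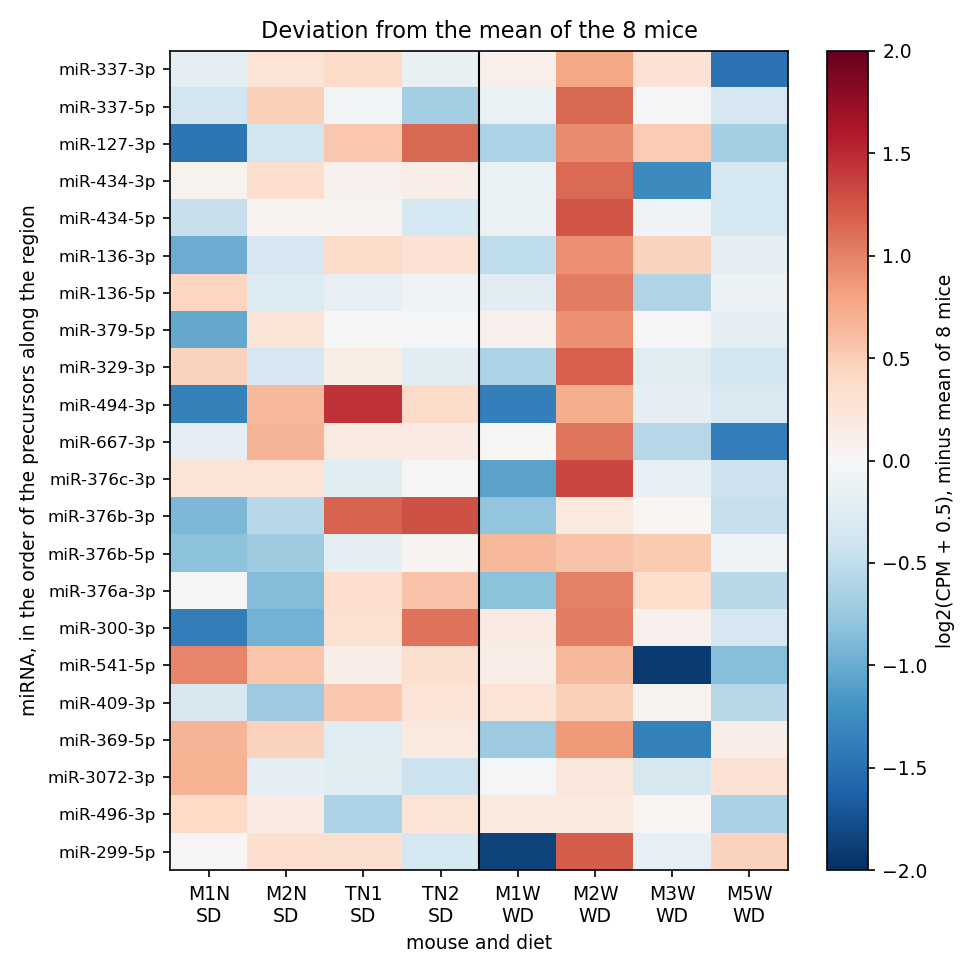
Deviation of each mouse from the mean of the 8 mice, as log2(CPM + 0.5), for the 22 entries with at least 40 reads, rows in the order of the precursors with miR-496-3p and miR-299-5p, for which no sequence was available to search, at the bottom. The column of M2W is above the mean in all 22 rows, against 72.3% of all miRNA entries with as many reads, and the row of miR-376b-3p is high in TN1 and TN2.

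Between diets, no miRNA of the region passed an adjusted p of 0.05 over the 16955 small RNAs tested (edgeR, quasi-likelihood, Benjamini-Hochberg adjustment), where 0% of all small RNAs passed. The smallest adjusted p was 0.318 over all small RNAs and 0.210 within the miRNA class. DESeq2 and limma-voom gave none either. At an unadjusted p under 0.05 edgeR had 1 of the 13 entries, where 16.5% of all miRNA entries tested passed. By the study's criteria for miRNAs, with 0.1 as the highest unadjusted p and 1.5 as the smallest fold change, 1 of the 13 entries was higher and 1 was lower in WD mice. This is near the background: 7.89% of the 418 miRNA entries tested were higher and 7.18% lower by the same criteria, 15.1% in all. DESeq2 also gave 1 higher and 1 lower, beside 7.18% and 6.7% of all miRNA entries. With limma-voom it was again 1 and 1, beside 7.66% and 5.74%. The median log2 fold change was 0.10 over the 13 entries, 0.03 over all miRNA entries tested and -0.01 over all small RNAs tested. In 10 of the 13 entries it was above 0, against 52.4% of all miRNA entries. Without M2W the balance turned, with 10 of 13 below 0, against 59.4% of the miRNA entries tested without that mouse, and medians of -0.30 over the 13 entries and -0.10 over all miRNA entries. Standard errors for the 13 lay between 0.30 and 0.50, and in 8 of them the standard error exceeded the size of the difference.

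**Figure D4:**
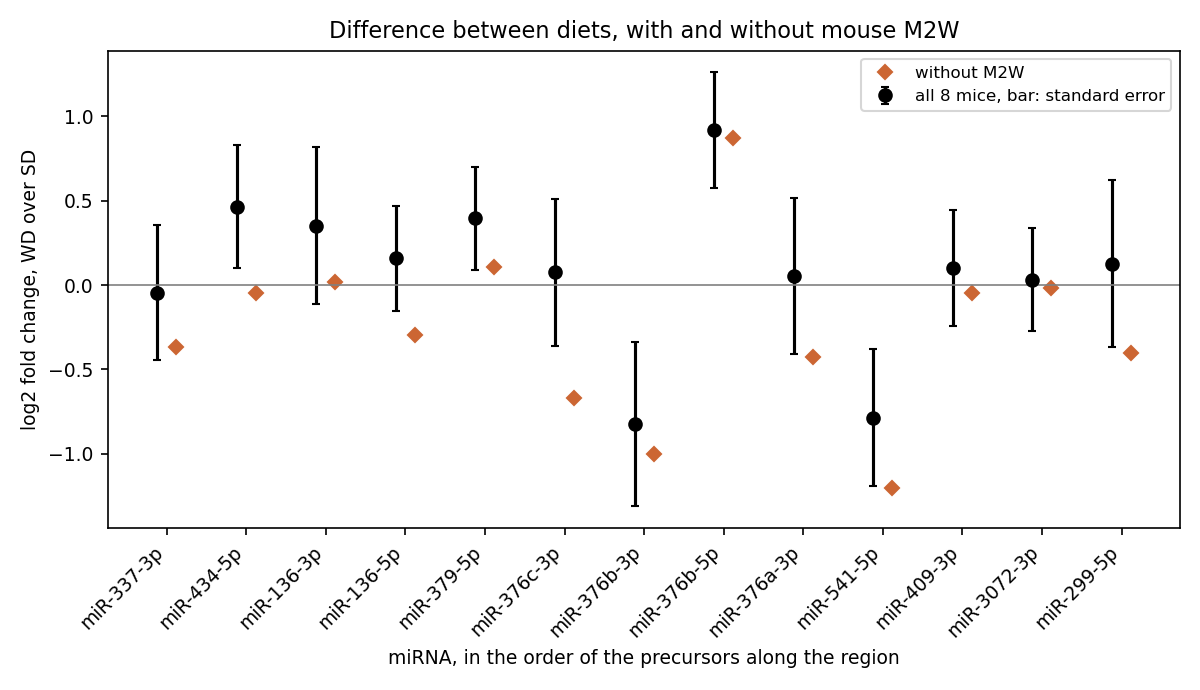
Log2 fold change, WD over SD, of the 13 miRNAs tested, in the order of the precursors with miR-299-5p, not placed, at the end. Black points use all 8 mice, with bars for the standard error, and orange diamonds leave out M2W. Without M2W the value is lower for all 13, and it stays above 0.5 only for miR-376b-5p.

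The entry higher by the criteria was miR-376b-5p. The miR-376 family is known for precursors whose adenosines are edited to inosine in some tissues, which can alter the seed. miR-376b-5p had 2.06, 2.23, 3.47 and 4.17 CPM in M1N, M2N, TN1 and TN2, from 6, 7, 11 and 9 reads. In M1W, M2W, M3W and M5W it had 6.57, 6.14, 5.99 and 3.73 CPM, from 20, 14, 13 and 12 reads. WD mice were higher except that M5W fell below TN2, so the diets overlapped. WD mice averaged 5.61 ± 1.28 CPM and SD mice 2.98 ± 1.01 CPM (± SD, n = 4 each), which gave 0.92 as the log2 fold change, with 0.34 as its standard error. edgeR's quasi-likelihood test gave p = 0.0172 and an adjusted p of 0.318, and permuting log2(CPM + 0.5) over all 70 assignments of the mice, an exact two-sided test, gave p = 0.0571, where 0.0286 is the smallest that 4 mice against 4 allow. Its direction is not independent of the study's own choice, since the study listed this miRNA from the same mice. The log2 fold change was 1.35 against M1N and M2N (edgeR, adjusted p = 0.0424, where 20.8% of all small RNAs tested passed), the one adjusted p under 0.05 in the group. Against TN1 and TN2 it was 0.55 and no longer met the criteria. Higher by the criteria were 1 of 16 entries tested against M1N and M2N, beside 15% of all miRNA entries, and 0 of 15 against TN1 and TN2, beside 5.2%. Without M2W it was 0.87 (adjusted p = 0.318) and met the criteria, the only 1 of 13 to be higher, where 6.19% of miRNA entries were.

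miR-376b-3p, the other arm of the same hairpin, had the opposite sign. It had 2.40, 3.19, 11.7 and 12.5 CPM in M1N, M2N, TN1 and TN2, from 7, 10, 37 and 27 reads. In M1W, M2W, M3W and M5W it had 2.63, 5.70, 5.07 and 3.42 CPM, from 8, 13, 11 and 11 reads. TN1 and TN2 were the highest 2 mice, while M1N and M2N lay with the WD mice. At -0.82 on the log2 scale (standard error 0.49, adjusted p = 0.416) it did not meet the criteria, and the exact permutation test gave p = 0.429. It met them as lower without M1N (-1.12), without M2N (-1.09), without M2W (-0.999), with a replicate block (-0.71) and against TN1 and TN2. In that last comparison it was -1.56 (adjusted p = 0.115, where 0.134% of all small RNAs tested passed 0.05). Against M1N and M2N alone the direction reversed to 0.53 (adjusted p = 0.444). Between the pairs of SD mice its mean differed 4.32-fold, and 1.2% of the 418 miRNA entries tested had at least 4 times as much in TN1 and TN2 as in M1N and M2N, and 7.42% at least 2 times.

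The share of the 5p arm in the reads of miR-376b does not depend on the scaling of the libraries. Because the 5p counts may include reads of miR-376c-5p, the share may not be that of the miR-376b hairpin alone. It was 46.2% in M1N, 41.2% in M2N, 22.9% in TN1 and 25.0% in TN2, and 71.4% in M1W, 51.9% in M2W, 54.2% in M3W and 52.2% in M5W. Every WD mouse was above every SD mouse, and the means were 57.4% ± 9.40 for WD and 33.8% ± 11.6 for SD (± SD, n = 4 each). This comparison was not tested, and a 5p share with no overlap between diets was found in 4.57% of the 175 miRNAs with both arms listed, a read in every mouse and at least 100 reads in all, and WD mice were the higher ones in 3.43%. The difference of 23.6 percentage points was the second largest in size of the 175, whose median was 0.0753. The number of reads was small, 13 to 48 per mouse, and the exact 95% interval of single mice was wide (Clopper-Pearson, 51.3% to 86.8% in M1W and 19.2% to 74.9% in M1N). The difference was 13.7 points against M1N and M2N and 33.4 against TN1 and TN2. With the pooled reads of a diet it was 28.9 points.

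**Figure D5:**
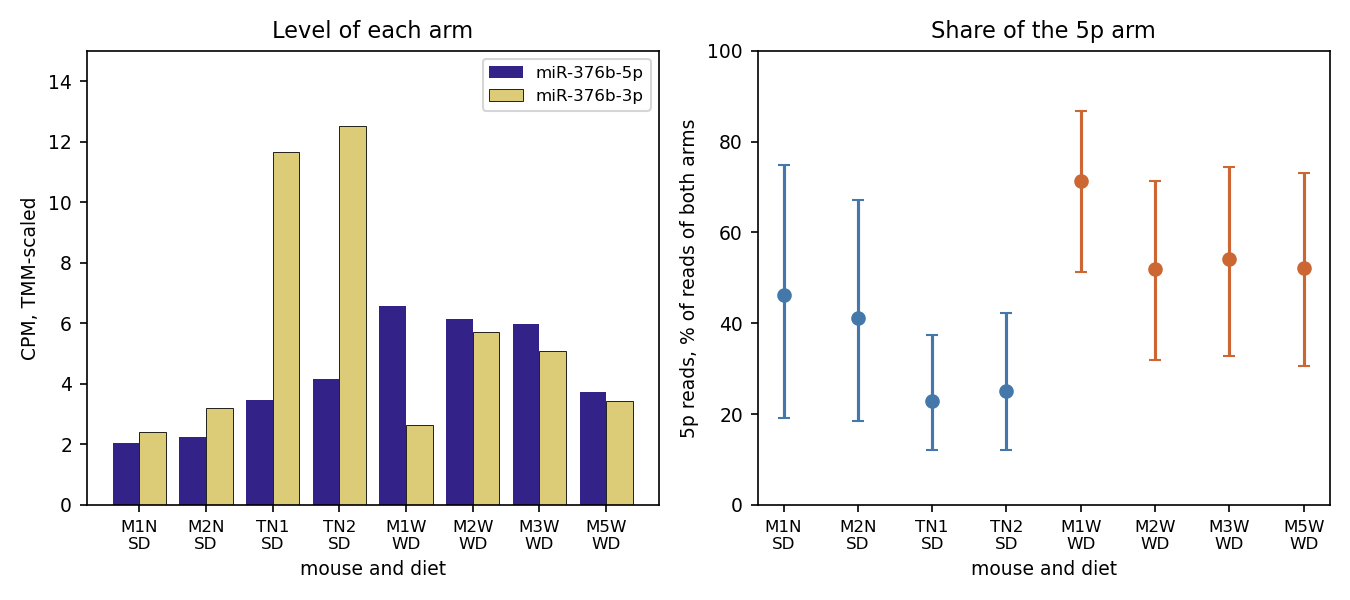
The arms of miR-376b in each mouse: TMM-scaled CPM of each arm (left, bars from 0) and the 5p reads as a percentage of the reads of both arms (right, bars: exact 95% Clopper-Pearson interval of that library). The 5p share is 22.9% to 46.2% in the SD mice and 51.9% to 71.4% in the WD mice, and the 3p arm is highest in TN1 and TN2. The 5p reads may include reads of miR-376c-5p.

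Several other precursors were read mostly from one arm. For miR-136 the 5p arm held 89.0% ± 5.51 of the reads in SD mice and 87.1% ± 5.92 in WD mice (± SD, n = 4 each). For miR-379 it held 96.9% and for miR-434 70.4% of the pooled reads, whereas miR-409 and miR-337 were read mostly from the 3p arm, with 20% and 39.0% from the 5p arm. Others were split between the arms, with 27 reads from the 5p and 26 from the 3p arm of miR-154 and 31 and 45 reads for miR-127. For miR-434 the 5p share was above that of every SD mouse in each WD mouse, 71.4% to 88.2% against 62.5% to 70.6%, a comparison without a test, where 3.43% of the 175 miRNAs had the same order. The nearest mice, M1W and TN1, had 28 and 34 reads of it. The 5p share of miR-541, 83.4% of its pooled reads, was 30% in M3W from 10 reads.

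The entry lower by the criteria was miR-541-5p, cut from an intron of Mirg. It had 13.4, 9.88, 7.25 and 8.34 CPM in M1N, M2N, TN1 and TN2, from 39, 31, 23 and 18 reads. In M1W, M2W, M3W and M5W it had 7.23, 10.5, 1.38 and 3.42 CPM, from 22, 24, 3 and 11 reads. M3W and M5W were the lowest mice, M1W was just below TN1, and M2W lay among the SD mice. WD mice averaged 5.64 ± 4.06 CPM and SD mice 9.71 ± 2.67 CPM (± SD, n = 4 each), a difference of -0.79 on the log2 scale with a standard error of 0.41. edgeR's test gave p = 0.0720 and an adjusted p of 0.370, and the exact permutation test gave p = 0.171. The difference was -1.04 against M1N and M2N and -0.46 against TN1 and TN2 (adjusted p = 0.0834 for the first), and -1.21 without M2W (adjusted p = 0.308). Lower by the criteria were 1 of 16 entries against M1N and M2N, beside 19% of all miRNA entries, and 1 of 15 against TN1 and TN2, beside 9.73%. The entry was miR-541-5p against the first pair but miR-376b-3p against the second. It no longer met the criteria without M1N (-0.59), M2N (-0.78), M3W (-0.50) or M5W (-0.58), and without M1N or M2N the 1 entry lower was miR-376b-3p, where 6.1% and 6.82% of all miRNA entries tested were lower. Its other arm, miR-541-3p, had between 0 and 7 reads per mouse and was not tested.

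In the remaining entries tested the diets overlapped and the difference stayed below the criteria. The log2 fold change was 0.35 for miR-136-3p, 0.13 for miR-299-5p, 0.10 for miR-409-3p, 0.03 for miR-3072-3p and -0.04 for miR-337-3p. With M2W left out, none of the entries higher in WD mice except miR-376b-5p met the criteria, and miR-376c-3p and miR-376b-3p (-0.999 on the log2 scale, adjusted p = 0.386) joined miR-541-5p among those lower, 3 of 13 against 16.7% of the 436 miRNA entries tested without that mouse. None of the 13 entries tested was without overlap between diets, against 8.37% of the miRNA entries tested. Over all 48 entries 1 was, miR-485-3p, with 4, 7, 3 and 2 reads in the SD mice and 2, 0, 0 and 0 in the WD mice, against 5.89% of the 730 miRNA entries listed. All its WD counts were under the limit of 3 reads and the filter had removed it. Without a filter it met the criteria as lower (edgeR, adjusted p = 0.346), together with miR-541-5p 2 of 48 entries, where 10.8% of the 730 miRNA entries were lower.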

How the data were processed

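Small RNA of 8 testes (4 SD, 4 WD mice) was sequenced on a SOLiD sequencer. The authors cut each read where the adaptor began or to 31 bases, mapped reads with Bowtie (version not given in the sources used here) to the mm9 genome with 2 mismatches, annotated them with miRBase release 18 and other databases, and deposited raw counts per small RNA and mouse. The submitters' processing notes also name DESeq.

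From these counts, edgeR 4.0.16 (R 4.3.3) was run on the whole table: TMM factors, column totals as library sizes, filterByExpr (minimum count 10, minimum total 15), glmQLFit and glmQLFTest, diet as the only term, two-sided. P-values were adjusted by Benjamini-Hochberg over the 16955 small RNAs tested. Standard errors were derived from the F statistic. DESeq2 1.42.0, limma-voom 3.58.1, other scalings and filters, each pair of SD mice, a replicate block and each mouse left out were alternatives. The procedure was tested on simulated data. Figures used matplotlib 3.10.9. The miRNAs and lists were chosen with earlier results of these data known. Values per mouse were given for the miR-376 family, the 5 most abundant entries, those meeting the criteria and those without overlap, and miR-3072-3p was added after its values were seen. Stretches of the region were assigned by name. The p-values of edgeR set the diet difference against the spread between these 8 animals, with dispersions shared over all small RNAs tested.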

Additional observations from a re-analysis of the deposited data

Results flagged for a closer look

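Among 30 groups of 4 mice, 4 held a single mouse whose distance from its neighbour, over the whole spread of the group, exceeded Dixon's 95% critical value. Chance alone would give 1.5 such groups, about 1 in 20, for normally distributed values. The groups were not independent, since the sum over the 48 miRNAs includes miR-434-5p, so the flagged groups do not count separate events. M2W had 260 CPM summed over the 48 miRNAs while the remaining WD mice had 104 to 121 (0.891 of the spread). The same mouse had 17.98 CPM of miR-434-5p, where 5.60 to 6.91 were found in the rest of its diet group (0.894). For miR-3072-3p it was M1N, with 11.7 CPM against 5.09 to 6.06 in the remaining SD mice (0.853). For the 5p share of miR-376b it was M1W, with 71.4% against 51.9% to 54.2% (0.882), and without M1W the diets differed by 18.9 percentage points in place of 23.6.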

How the results depend on the processing

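Shares in parentheses are those of all miRNA entries called under the same setting. With 1 entry higher and 1 lower, 0 were higher with at least 10 counts in every mouse (5 entries kept, 6.77% of all) or against TN1 and TN2 (5.2%), and 1 to 2 when each mouse was left out in turn (2 without M5W, 8.62%, and 1 without each of the others, 5.87% to 9.37%). Lower were 2 without a filter (10.8%), 0 with at least 10 counts in every mouse (5.23%), 0 at an unadjusted p of 0.05 (5.74%), and 0 to 3 with a mouse left out (3 without M2W, 16.7%, and 0 without M3W, 7.34%, or M5W, 5.36%). An unchanged count of 1 lower hid a change from miR-541-5p to miR-376b-3p without M1N (6.1%), without M2N (6.82%) and against TN1 and TN2 (9.73%), and miR-541-5p remained the 1 lower without TN1 (11.9%), TN2 (11.6%) or M1W (7.64%). An adjusted p under 0.05 was reached by 1 entry against M1N and M2N, where 20.8% of all small RNAs passed. The cause was not tested.

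Directions reversed with limma-voom for miR-299-5p (-0.34), miR-376a-3p (-0.061) and miR-376c-3p (-0.26), with column totals for miR-337-3p (0.0098), against M1N and M2N for miR-3072-3p (-0.24), miR-337-3p (0.0079), miR-376b-3p (0.53) and miR-376c-3p (-0.11), and against TN1 and TN2 for miR-376a-3p (-0.37) and miR-409-3p (-0.34). With a mouse left out the log2 fold change ran from -0.30 to 0.34 for miR-136-5p, -0.40 to 0.52 for miR-299-5p, -0.080 to 0.36 for miR-3072-3p, -0.37 to 0.31 for miR-337-3p, -0.43 to 0.32 for miR-376a-3p, -0.67 to 0.37 for miR-376c-3p, -0.10 to 0.38 for miR-409-3p and -0.045 to 0.67 for miR-434-5p. miR-376b-5p stayed above 0 and miR-541-5p below 0 under each alternative that tested them.

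With the replicate block, 2 entries were lower by the criteria, miR-541-5p and miR-376b-3p (-0.71), where 6.94% of all miRNA entries were lower, and miR-376c-3p was at -0.035. Only M1 and M2 are shared numbers, and deviations correlated at -0.07 and 0.23 within these numbers and at 0.23 and -0.07 across them. So few values cannot show whether the numbers pair the mice. The main fit had no block because the study's methods use none. Few reads limited the comparison: the filter on low counts removed 35 of the 48 entries.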

Other observations

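Other products of the region were listed at similarly low counts and none was tested. miR-1247-5p, from a gene next to Dio3, had 10 reads over the 8 mice. The precursor entry of miR-369 had 26 reads, between 1 and 6 per mouse, and that of miR-3072 had 9. Among small nucleolar RNAs, which guide chemical modification of other RNAs and are encoded in large arrays in this region, the annotated transcripts AF357428 and 1 copy of SNORD113 had 12 and 11 reads.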
